A study of Mus musculus with 4 samples.

Results

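The genes described here are the 91 zinc finger protein genes of mouse chromosome 7 that carry a numbered Zfp symbol, among 55291 features of the deposited count table. They were chosen by symbol and by the chromosome in the table, leaving out Zfp36, and the rule itself uses no measured value. The other chromosomes held 283 genes of the same naming. Zinc finger proteins of the C2H2 kind fold short loops around zinc, each held by a pair of cysteines and a pair of histidines, and strings of such fingers read DNA sequence. Many in mammals also carry a KRAB domain, which recruits Trim28 (KAP1) and through it Setdb1, the enzyme that places H3K9me3, and these proteins are known for silencing transposable elements and for protecting imprinted marks in the early embryo. KRAB zinc finger genes lie in clusters that grew by duplication, and several of the clusters are on chromosome 7.

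RNA of mouse zygotes, the fertilised eggs before the first division, was sequenced in 4 samples, with 1 sample in each group. The groups were the control and the injected zygotes of an MO experiment and of an S31A experiment, in a study of histone H3.3 supplied by the egg. MO is not spelled out in the labels, and S31A names a serine to alanine change in the histone. What the control zygotes received, the strain and age of the mice and the number of zygotes per sample are not given in the sources used here. Each sample had 2 count columns, called library 1 and library 2, which no source describes as separate pools of zygotes, so they were counted as 1 replicate. No test between groups was possible, and all differences are descriptions of these 4 samples. In bulk RNA, fewer cells of a type and less RNA per cell cannot be told apart.

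The families behind the symbol differ in how their fingers are built. Of 88 members with a coding sequence, 49 held a match to the KRAB A-box pattern, and the number of fingers ran from 1 in Zfp428 to 33 in Zfp619, with a median of 11. The pattern was searched in 1 coding sequence per gene, the longest, so members without a match may still carry a KRAB domain. KRAB members are here those with a match. Zfp264, Zfp419 and Zfp939 are annotated as pseudogenes. The coding stretch of a finger is printed for each of 4 members, with the cysteine and histidine codons in capitals. Each was taken at 63 bases, a length that fixes the places of the 4 zinc-binding codons, so their shared spacing comes from the selection. The letters between them differ. Zfp108 and Zfp60 are KRAB members with 12 and 19 fingers, Zfp592 is a member with 8 fingers and no KRAB match, and Zfp94 is a KRAB member with 11 fingers. Sequences follow the GENCODE M21 gene models on mm10.
Zfp108, coding bases 847 to 909: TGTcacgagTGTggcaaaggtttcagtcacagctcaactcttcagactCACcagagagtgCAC
Zfp60, coding bases 523 to 585: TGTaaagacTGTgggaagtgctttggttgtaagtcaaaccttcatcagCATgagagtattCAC
Zfp592, coding bases 2224 to 2286: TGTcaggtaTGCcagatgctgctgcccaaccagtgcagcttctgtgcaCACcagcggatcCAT
Zfp94, coding bases 493 to 555: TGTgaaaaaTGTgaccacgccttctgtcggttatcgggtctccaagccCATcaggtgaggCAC

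A minority of the members carried the same promoter word, at a higher share than genes at large. The word is the core of an element that the product of Zfp143, itself a gene of chromosome 7, is known to bind, and it was searched on both strands, with its middle letters left free. It stood in the window from 250 bases before to 50 after the start site in 21 of the 82 members that had a window (25.6%). The share was 1.61% of all 27025 windows (436 of them) and 11.7% of the other Zfp genes (26 of 222). The stretches printed next each hold 53 bases around a match, read along the strand of the gene, with the match in capitals, because they include the most abundant member and 4 others whose values are given further on. They come from RefSeq on GRCm38.p6, whose coordinates are those of mm10.
Zfp108, plus strand, chr7:24254649-24254701: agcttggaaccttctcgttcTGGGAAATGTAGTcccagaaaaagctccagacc
Zfp108, plus strand, chr7:24254705-24254757: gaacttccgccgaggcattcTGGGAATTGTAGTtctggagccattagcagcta
Zfp109, minus strand, chr7:24237692-24237744: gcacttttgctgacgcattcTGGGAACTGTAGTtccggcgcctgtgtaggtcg
Zfp60, plus strand, chr7:27731324-27731376: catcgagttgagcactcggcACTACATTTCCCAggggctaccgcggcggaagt
Zfp420, plus strand, chr7:29859900-29859952: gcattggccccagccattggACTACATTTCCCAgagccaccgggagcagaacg
Zfp790, plus strand, chr7:29815947-29815999: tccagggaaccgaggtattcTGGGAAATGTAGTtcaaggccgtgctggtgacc
Zfp108 held the pattern at 2 places, 125 and 69 bases before its start site, both in the reverse orientation. Zfp109, its neighbour, held it 126 bases before the start, also reversed.

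The libraries held 5661621 to 13233371 counts assigned to genes, and the samples, summed over their libraries, held 14806944 to 22414123. Values are CPM, a gene's share of the library's counts scaled to a fixed library size, after scaling by the trimmed mean of M-values (TMM). H3f3b, one of the genes encoding H3.3, was at 2199 and 1550 CPM in the MO controls and at 2.30 and 10.5 CPM after MO injection. In the S31A experiment H3f3b was at 1453 to 2749 CPM. H3f3a, which also encodes H3.3, was at 462 and 586 CPM in MO control and at 8.04 and 52.4 CPM in MO injected. In the S31A experiment H3f3a was at 484 to 657 CPM. Both H3.3 genes were thus lower in both MO injected libraries than in both MO control libraries. Of 14 oocyte and zygote marker genes in the table, 12 were at 10 CPM or more in all 8 libraries, with summed levels of 11102 to 17204 CPM. Cumulus and granulosa markers summed to 47.8 to 167 CPM, of which Cyp19a1 alone was 35.0 to 165 CPM, with 7 of 14 at 0 in every library (Ptx3, Has2, Tnfaip6, Amh, Fshr, Foxl2 and Vcan). Their sums were 47.8 and 53.9 CPM in MO control and 53.3 and 91.2 CPM in MO injected, then 58.6 and 90.2 CPM in S31A control and 68.4 and 167 CPM in S31A injected, and their part in the results was not tested. Sperm markers summed to at most 6.74 CPM, with Prm1, Tnp1, Tnp2 and Smcp at 0. The number of genes with a count was 14895 and 15156 in MO control and 11372 to 13359 over the other libraries.

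Zygotes held transcripts of most members at low level. Of 91 members, 17 (18.7%) were at 0 in all 8 libraries, against 63.6% of all features and 19.4% of the other Zfp genes. These were Zfp784, Zfp419, Zfp128, Zfp324, Zfp446, Zfp112, Zfp114, Zfp59, Zfp382, Zfp976, Zfp658, Zfp771, Zfp747, Zfp764, Zfp688, Zfp629 and Zfp668, and 0 of 81016390 counts allows a level of up to 0.037 CPM. A further 29 members had counts and stayed under 10 CPM in every sample, with 20.02 CPM in 1 library, for Zfp526, the highest among them. A level of 10 CPM in at least 1 sample was reached by 45 members (49.5%), by 16.2% of all features and by 54.4% of the other Zfp genes. The members' median length was 4426 bases against 1232 for all features, and longer genes gather more counts. KRAB and other coding members reached 10 CPM about equally often, in 24 of 49 and 20 of 39. Members numbering 15 were at 10 CPM or more in all 8 libraries: Zfp541, Zfp296, Zfp235, Zfp109, Zfp108, Zfp574, Zfp60, Zfp84, Zfp383, Zfp74, Zfp568, Zfp939, Zfp936, Zfp592 and Zfp553.

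Zfp108, at chr7:24254794-24262445 on the plus strand, was the most abundant member. Per kilobase of gene length its level was 196 CPM in MO control, 102 in MO injected, 117 in S31A control and 82.2 in S31A injected, whereas the highest level of any other member in any sample was 47.4 CPM per kilobase, for Zfp939 in S31A injected. By library Zfp108 stood at 381 and 805 CPM in MO control, 184 and 409 in MO injected, 342 and 294 in S31A control, and 139 and 324 in S31A injected. Within each experiment the injected and control libraries overlapped, and both MO control libraries stood above all 4 S31A libraries. Zfp108 alone made up 7.60% to 29.9% of the members' summed CPM. The feature Gm18212 shared 91.2% identity with Zfp108 over 820 bases and was listed at 0 in every library.

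After Zfp108 came a group of members at similar levels per kilobase. Zfp936, a KRAB gene, stood at 36.1 and 34.5 CPM per kilobase in MO control and MO injected and at 28.5 and 29.7 in the S31A pair. Zfp60, another KRAB gene, stood at 25.4, 25.0, 33.7 and 34.4 in the same order. Zfp592, which works with Zmynd8 in a chromatin-reading complex, stood at 23.1, 16.7, 22.6 and 28.7. The order among these is not set, because a member's libraries spread as widely as the gaps between members: Zfp936 ran from 13.1 to 162 CPM over the 8 libraries. The pseudogene Zfp939 (24.8, 24.7, 20.1 and 47.4), Zfp383 (31.8, 16.2, 30.3 and 27.1) and Zfp296 (19.1, 11.4, 33.8 and 32.3), a gene tied to pluripotency, lay in the same range of CPM per kilobase. Zfp296 overlaps Gemin7 on the other strand and Zfp553 overlaps Septin1, and without a stated strand setting their reads cannot be told apart. Zfp553, Zfp420 and Zfp109 completed the 10 with the highest mean level per kilobase.

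The steadiest of the members detected everywhere was Zfp592, which was at 173 and 181 CPM in MO control, 118 and 130 in MO injected, 167 and 165 in S31A control, and 236 and 179 in S31A injected. Its highest library was 2.0-fold above its lowest. Zfp574 followed at 2.5-fold, Zfp60 at 3.3-fold and Zfp235 at 3.5-fold. Zfp60 was at 213 and 231 CPM in MO control, 217 and 198 in MO injected, 286 and 275 in S31A control, and 141 and 467 in S31A injected, so its widest gap was between the libraries of 1 sample.

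**Figure D1:**
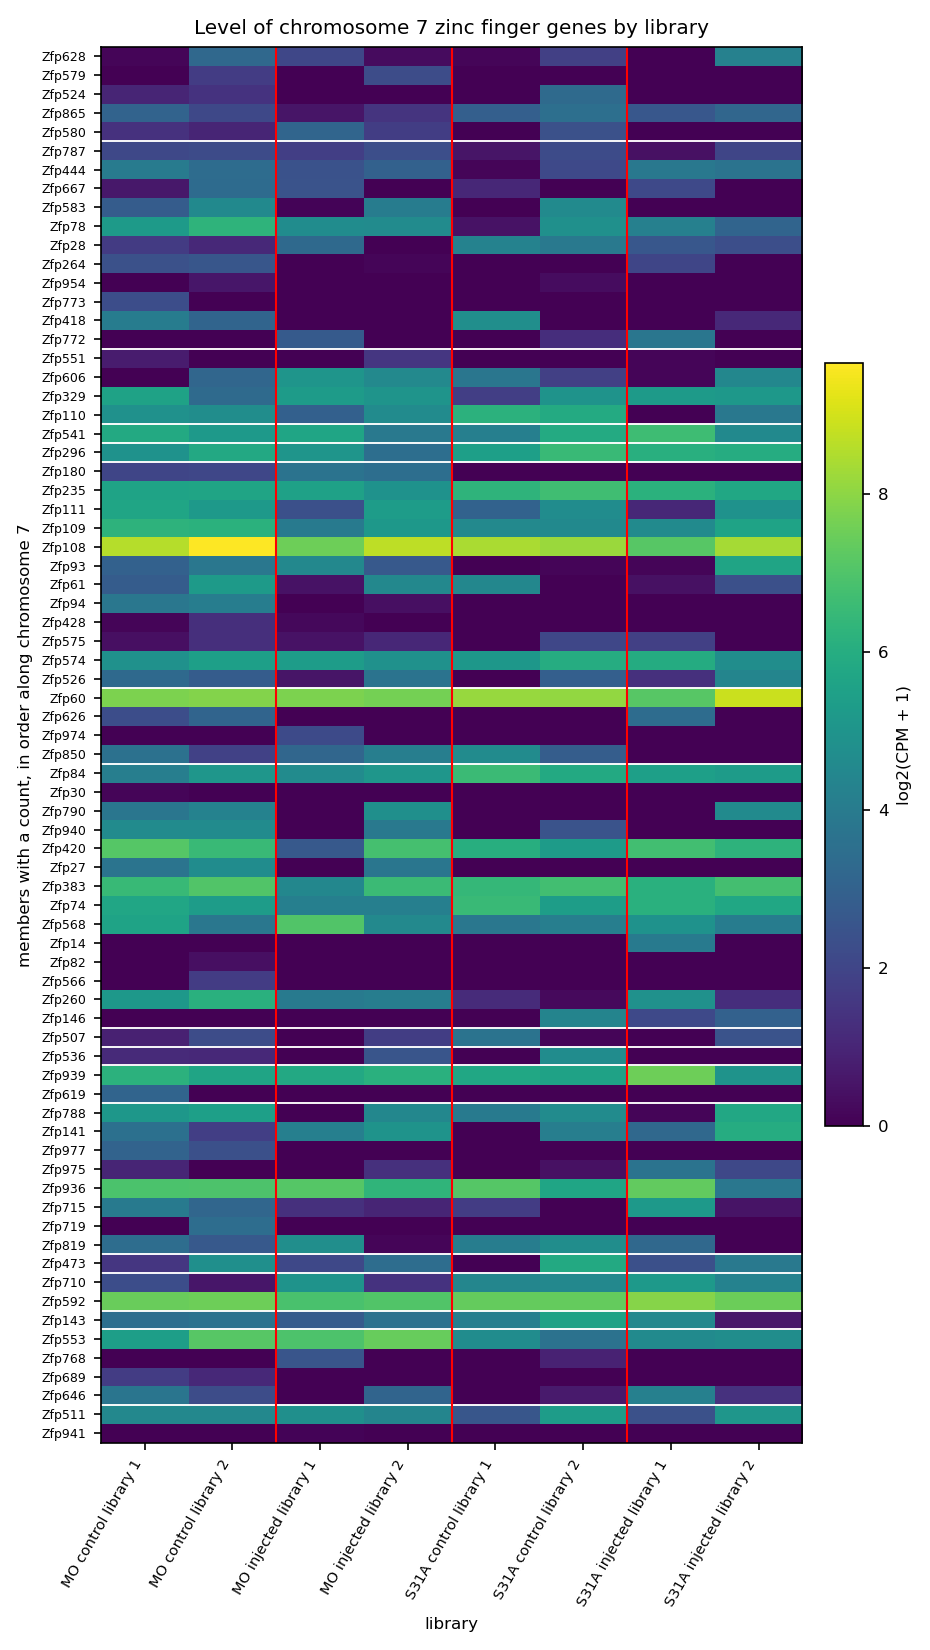
The colour gives log2(CPM + 1) of the 74 members with a count (rows, in order along chromosome 7, white lines between clusters) in each of the 8 libraries (columns, red lines between samples). Zfp108, Zfp60 and Zfp592 are high in every library, and many rows are at or near 0 in single libraries.

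Members were patchy between the libraries of a sample. Of the members that reached 10 CPM in either library of a sample, 1 of 39 in MO control, 4 of 37 in MO injected, 7 of 37 in S31A control and 5 of 38 in S31A injected were at 0 in the other library (2.56%, 10.8%, 18.9% and 13.16%). For all genes the shares were 0.735%, 3.61%, 8.39% and 8.20%. Such members lay at least 2-fold apart between the libraries in 38.5%, 56.8%, 54.1% and 65.8% of cases, against 25.1%, 40.1%, 40.6% and 41.1% of all genes. The other Zfp genes lay between, with 1.41%, 5.22%, 12.98% and 11.6% at 0 in the other library and 31.7%, 52.2%, 48.1% and 52.7% at least 2-fold apart. Zfp418 in S31A control (26.4 and 0 CPM) and Zfp790 in MO injected (0 and 26.9 CPM) are examples. The spread between separate samples of a group is not measured by these gaps, since each group had 1 sample.

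By position the members fell into 18 clusters when a gap of over 1 Mb opened a new one. The largest cluster by members, at chr7:29768552-30169750 from Zfp84 to Zfp146, held 15 members, 11 of them with a KRAB match, and 10 reached 10 CPM in a sample. The cluster at chr7:24081924-25227507 held 14 members including Zfp108, and 9 reached 10 CPM. At the other end, the cluster of 10 members at chr7:127233061-127885996 had 6 that were at 0 in all libraries, and none of the 6 members at chr7:4915217-5053723 reached 10 CPM. The cluster at chr7:41633203-43618285 held 10 members, all with a KRAB match, and 5 of them reached 10 CPM. Among the 5 clusters of 10 or more members, those from Zfp84 to Zfp146 and from Zfp180 to Zfp526 had the highest shares at 10 CPM.

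The promoter pattern differed between the clusters as well, and it did not follow detection in all of them. Of members at 10 CPM in a sample 17 of 42 with a window held the Zfp143 element (40.5%), against 4 of 40 of the rest. Over all genes found in both tables the shares were 3.71% of 6354 at 10 CPM and 1.27% of 14623 below. The element stood in 10 of 14 windows of the Zfp84 to Zfp146 cluster and in 6 of 11 of the Zfp180 to Zfp526 cluster. It stood in 0 of 10 of the cluster from Zfp788 to Zfp819, where 5 of 10 members reached 10 CPM. Neighbours in a cluster arose by duplication and share sequence, so these are not independent counts. Of the 5 other patterns searched on both strands, CCGGAAG was in 21.95% of member windows against 9.14% of all, but in 22.5% of windows of the other Zfp genes and in 18.96% of those of all genes at 10 CPM. Shares of the remaining patterns in member and in all windows were, for the palindrome bound by Nrf1, 7.32% and 0.981%, for TATAAA 6.10% and 14.2%, for CCAAT 43.9% and 38.0%, and for GGGCGG 36.6% and 35.9%. A match is a description of these letters and not a measured binding site.

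**Figure D2:**
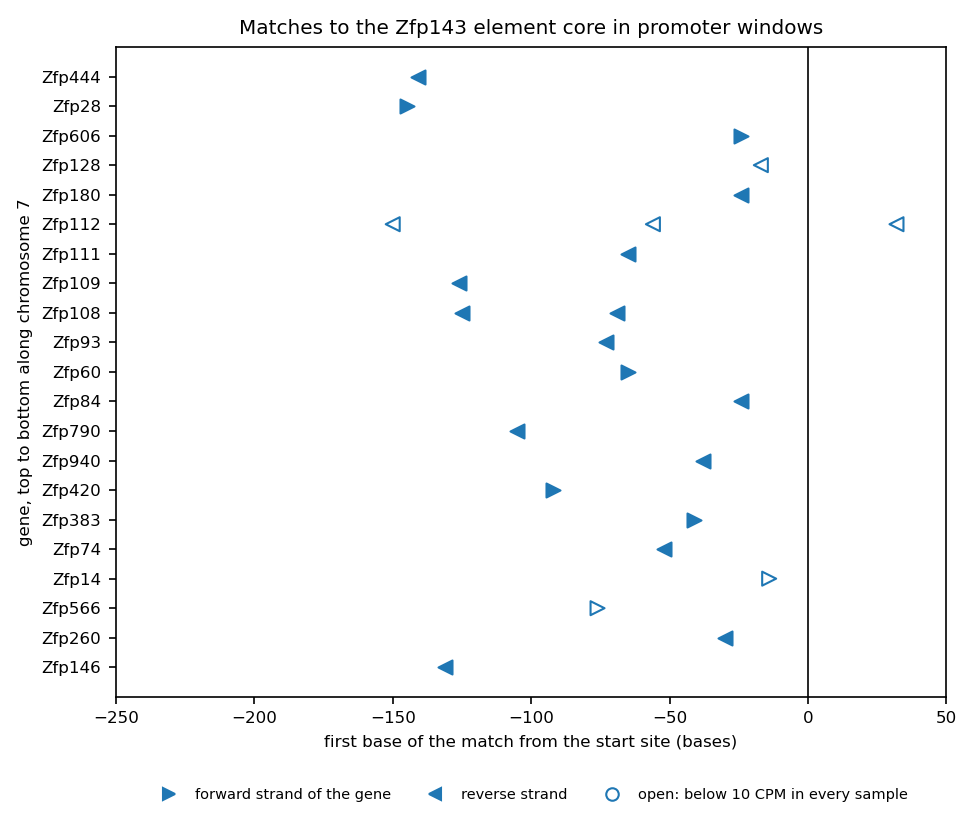
Each mark is a match to the Zfp143 element in a member's window, placed by its distance in bases from the RefSeq start site (horizontal axis), with 1 row per gene, arrows for the orientation and open marks for genes under 10 CPM. Most matches lie before the start site, and Zfp108 has 2.

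Zfp143 is the gene whose product binds that element and activates promoters. It was at 10.7 and 11.8 CPM in MO control, 5.74 and 11.6 in MO injected, 17.1 and 45.7 in S31A control, and 21.998 and 0.535 in S31A injected. The libraries of S31A injected lay far apart, the second below all others, so the level of that sample is not set.

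The MO comparison asks what changed in zygotes with little H3f3b and less H3f3a transcript. In it the members stood lower more often than higher. Of 41 members measured, meaning that either sample of the pair reached 10 CPM, 13 were at least 2-fold lower in MO injected (31.7%, where 12.5% of 8110 genes were) and 5 at least 2-fold higher (12.2%, where 11.3% of genes were). The other Zfp genes showed 35 of 139 lower (25.2%) and 14 higher (10.1%), so the lean was not limited to chromosome 7. The median log2 ratio was -0.47 for members, -0.28 for the other Zfp genes and 0.03 for all genes, and it was the same with the 1 member at 0 counts set to its bound. In 18 of the 41, only 1 of the samples reached 10 CPM. Among the 23 at 10 CPM in both samples, 6 were at least 2-fold lower and 1 higher, with a median of -0.39, where all 6655 such genes had 462 lower and 511 higher. KRAB members counted 9 lower and 3 higher of 23, and other coding members 4 lower and 2 higher of 17.

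Library 1 of MO injected weighed on these counts. Without it 9 of 39 members were at least 2-fold lower (23.1%, all genes 14.0%) with a median of -0.28, and without library 2 of that sample 20 of 40 were (all genes 22.7%) with a median of -1.06. The members' summed level was 2078 and 2696 CPM in MO control and 1532 and 1874 CPM in MO injected, in which library 1 was the lowest of all 8. The other Zfp genes summed to 11829 and 10503 CPM in MO control and to 8913 and 10776 CPM in MO injected.

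Among the 13 lower members, out of 41 measured, 10 had both injected libraries below both control libraries. Over all genes that held for 842 of the 1017 lower ones, out of 8110 measured (10.4%). Zfp418, a KRAB gene, was at 15.5 and 7.56 CPM in MO control and had 0 counts in both injected libraries, which is at least 88.3-fold lower with a floor of 3 counts over the sample. It had 26.4 and 0 CPM in the S31A control libraries, so a library at 0 was not particular to injection for this gene. Zfp94 was at 13.04 and 15.9 CPM in MO control and at 0 and 0.327 CPM, or 3 counts, in MO injected. Its log2 ratio was -5.88, with a 95% interval from counting error alone of -8.95 to -5.10, and it was -5.03 without injected library 1. Zfp94 had no count in any S31A library.

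Zfp715, Zfp109, Zfp260, Zfp74 and Zfp444 were lower in both injected libraries with counts in each. Zfp109, the KRAB neighbour of Zfp108, stood at 74.1 and 71.2 CPM in MO control and 14.3 and 34.2 CPM in MO injected, a log2 ratio of -1.64 (-1.80 to -1.49). Zfp74 stood at 51.1 and 39.5 CPM against 17.0 and 17.0 CPM, a log2 ratio of -1.39 (-1.58 to -1.21). Zfp260, which has a run of fingers and no KRAB match, stood at 34.0 and 69.2 CPM against 14.8 and 16.3 CPM, a log2 ratio of -1.58 (-1.78 to -1.40). Taken as ratios, the libraries within each sample lay closer together than the summed samples did for these 3 genes. In CPM that did not hold for Zfp260, with control libraries at 34.0 and 69.2 and samples at 46.6 and 15.5. The injected libraries of Zfp109, at 14.3 and 34.2 CPM, also lay further apart by ratio than the nearest libraries of its samples, 34.2 and 71.2.

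Zfp715 was at 14.8 and 8.06 CPM in MO control and 1.53 and 0.982 CPM in MO injected, a log2 ratio of -3.07 (-3.78 to -2.59). Zfp444, with 4 fingers, was at 15.1 and 9.54 CPM against 4.37 and 7.09 CPM, a log2 ratio of -1.16 (-1.52 to -0.84). Other ratios rested on library 1 of MO injected, which had 0 counts where library 2 did not. Zfp788 was at 33.4 and 42.9 CPM in MO control and 0 and 20.96 CPM in MO injected, a log2 ratio of -2.04 that was -0.85 without that library. Zfp940 was at 24.2 and 24.2 CPM in MO control and 0 and 14.0 CPM in MO injected, a log2 ratio of -2.0 that was -0.82 without it. Zfp78 made up the last of the 10, at 37.6 and 77.4 CPM against 24.6 and 24.0 CPM, with a log2 ratio of -1.08. Libraries overlapped in the remaining lower members, Zfp27, Zfp420 and Zfp111. Zfp420, one of the 10 most abundant, was at 136 and 91.4 CPM in MO control and 5.51 and 111 CPM in MO injected, a log2 ratio of -1.22 that was -0.12 without injected library 1.

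In the other direction, 3 members were at least 2-fold higher with libraries that did not overlap, where 7.29% of all genes were. Zfp180 was at 3.04 and 3.12 CPM in MO control and at 11.6 and 10.3 CPM in MO injected, a log2 ratio of 1.87 (1.45 to 2.38), and was at 0 in all 4 libraries of the S31A experiment. Of 40 members with counts in all 4 MO libraries, it was the 1 with none in the 4 S31A libraries (2.50%). The same held for 143 of 10299 such genes in all (1.39%) and for 1 of 140 other Zfp genes (0.714%). Zfp606 was at 0 and 8.06 CPM in MO control and 31.9 and 22.05 CPM in MO injected, with a log2 ratio of 3.13 that was 1.82 without MO control library 1. Zfp141 was at 10.8 and 2.47 CPM against 17.0 and 30.2 CPM, a log2 ratio of 1.63. Over 388 of its 2058 coding bases it shares 97.4% identity with 2610021A01Rik, which stood at 40.6 to 168 CPM. Reads of that stretch could have been placed on either gene.

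Among the 10 members highest per kilobase, Zfp60 had a log2 ratio of -0.02, Zfp936 -0.07 and Zfp939 -0.01. Zfp383 had -0.97, from 88.9 and 130 CPM in MO control and 21.3 and 95.2 CPM in MO injected, and Zfp296 had -0.74, from 29.5 and 56.2 CPM and 32.0 and 10.3 CPM. Zfp592 had -0.47, with both injected libraries below both control libraries, and Zfp108 had -0.94 with overlapping libraries. Zfp568, a KRAB protein known for silencing a placental promoter of Igf2, was at 48.03 and 13.15 CPM in MO control and 129 and 22.2 CPM in MO injected. Its log2 ratio of 1.36 became -0.65 without injected library 1. Zfp710, which overlaps Gm44949 on the other strand, behaved alike, at 3.80 and 0.493 CPM against 30.1 and 1.64 CPM, with a log2 ratio of 2.89 that was -0.60 without injected library 1. Zfp553 was at 41.3 and 140 CPM against 124 and 170 CPM, a log2 ratio of 0.88.

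**Figure D3:**
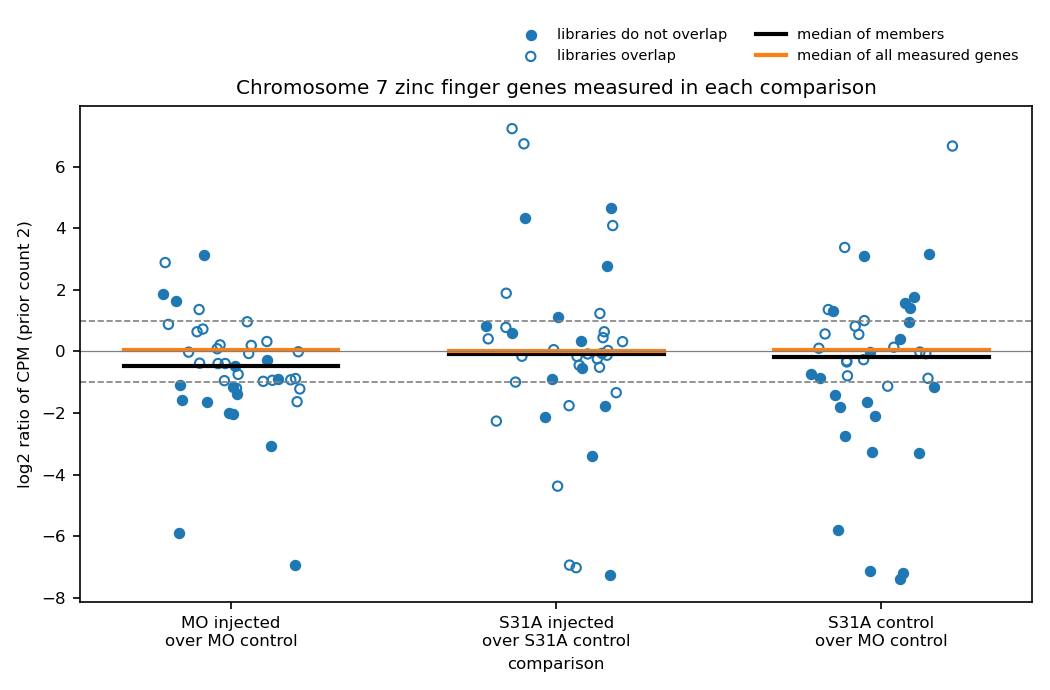
Points are log2 ratios of the measured members (vertical axis) in each of the 3 comparisons, filled where the libraries of the samples did not overlap and open where they did, with horizontal bars for the median of members and of all measured genes and dashed lines at 2-fold. More members lie under a 2-fold decrease than over a 2-fold increase in the MO comparison (13 against 5), and 10 lie under it against 9 over it in the S31A comparison.

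By cluster, the members from Zfp84 to Zfp146 had 5 lower and 1 higher of 9 measured in the MO comparison, where 12.5% and 11.3% of all genes were, with a median log2 ratio of -1.22. Without MO injected library 1 the count was 2 lower and 0 higher, with a median of -0.45. The same cluster had 6 lower and 2 higher of 10 in S31A control against MO control, with a median of -1.14, a comparison that shares the MO control. Their summed level was 424 and 446 CPM in MO control and 212 and 348 CPM in MO injected, against 354 and 284 CPM in S31A control and 361 and 322 CPM in S31A injected. The Zfp180 to Zfp526 cluster had 3 lower and 1 higher of 9 in the MO comparison, and 2 lower without that library. From Zfp787 to Zfp772, 3 of 4 measured members were lower, and 2 without it. The cluster from Zfp788 to Zfp819 had 2 lower and 1 higher of 5, and the remaining clusters had 0 lower and 2 higher of 14 measured.

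Of the 15 measured members with the promoter element, 7 were lower and 2 higher in the MO comparison, with a median of -0.97, and without MO injected library 1 the count was 3 lower and 2 higher of 14, with a median of -0.19. Of the 24 with a window and no match, 6 were lower and 2 higher, with a median of -0.43. Without that library the count was 6 lower and 3 higher of 23, with a median of -0.30. Members with the element had 1 lower and 4 higher of 14 in the S31A comparison, with a median of -0.025. Those with no match had 9 lower and 4 higher of 23, with a median of -0.15. Between the controls, members with the element had 7 lower and 3 higher of 14, with a median of -0.94. Those with no match had 5 lower and 7 higher of 24, with a median of -0.025. Of all genes, 12.5% were lower and 11.3% higher in the MO comparison. The shares were 16.1% and 14.1% in the S31A comparison, and 16.2% and 13.6% between the controls. Members with the element thus leaned lower against MO control in both comparisons that use that sample. In the MO comparison, a lean beyond that of members with no match was not seen without MO injected library 1.

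The S31A comparison sets zygotes labelled as injected with the S31A form beside their own control. Members stood higher about as often as lower. Of 40 members measured, 9 were at least 2-fold higher (22.5%, where 14.1% of 8191 genes were) and 10 at least 2-fold lower (25.0%, where 16.1% of genes were). The other Zfp genes had 28 of 134 higher (20.9%) and 27 lower (20.1%). KRAB members counted 4 higher and 6 lower of 21, and other coding members 4 and 4 of 18. Median log2 ratios were -0.07 for members, 0.07 for the other Zfp genes and 0.02 for all genes. Only 4 members were higher and 4 lower with libraries that did not overlap, where 9.19% and 11.4% of all genes were. Among the 23 at 10 CPM in both samples, 2 were at least 2-fold higher and 1 lower, where all 6262 such genes had 474 higher and 490 lower. The calls thus came mostly from members that reached 10 CPM in 1 of the samples. The same held for all genes, of which 1155 were higher and 1322 lower before that restriction.

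Lower with separate libraries were Zfp850, Zfp110, Zfp819 and Zfp28, all with a KRAB match. Zfp850 was at 24.4 and 6.15 CPM in S31A control and was without a count in S31A injected, at least 105-fold lower. Zfp110, whose product is known as a partner of a neurotrophin receptor, was at 73.3 and 58.6 CPM in S31A control and 0 and 13.7 CPM in S31A injected, a log2 ratio of -3.41 (-3.70 to -3.17), and -2.30 without injected library 1. These members share a stretch with another gene. Zfp850 has 90.1% identity with Zfp60 over 313 of its 2070 coding bases. Zfp110 has 91.3% with Zfp369 over 976 of 2499. Zfp819 was at 15.9 and 25.8 CPM against 8.53 and 0 CPM, a log2 ratio of -2.12 that was -1.32 without injected library 2. Zfp28, with 95.4% identity to Gm3203 over 2391 bases, was at 18.4 and 14.1 CPM against 5.20 and 3.96 CPM. Its log2 ratio was -1.77 (-2.13 to -1.47).

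Higher with separate libraries were Zfp260, Zfp646, Zfp444 and Zfp329, none with a KRAB match. Zfp260 was at 1.31 and 0.176 CPM in S31A control and at 28.6 and 1.39 CPM in S31A injected, a log2 ratio of 4.34 that was 0.80 without injected library 1. Zfp646 was at 0 and 0.615 CPM against 17.4 and 1.61 CPM, a log2 ratio of 4.66 that was 1.95 without that library, and it overlaps Prss53 and Zfp668 on the other strand. Each of these ratios rested largely on 1 library. Zfp444 was at 0.0934 and 3.34 CPM against 13.6 and 11.7 CPM, a log2 ratio of 2.79 (2.36 to 3.38). Zfp329 was at 2.43 and 29.7 CPM against 37.2 and 34.3 CPM, a log2 ratio of 1.12 that was 0.30 without control library 1.

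Ratios of the abundant members were smaller. Zfp60 had a log2 ratio of 0.03, Zfp592 of 0.35 with both injected libraries above both control libraries, and Zfp108 of -0.51. Zfp939 had a log2 ratio of 1.23 from 52.9 and 46.3 CPM in S31A control against 185 and 30.5 CPM in S31A injected, and -0.74 without the first injected library. Zfp93 was at 0 and 0.0879 CPM, or 1 count, in S31A control and at 0.0853 and 48.5 CPM in S31A injected, a log2 ratio of 7.24 with an interval of 6.41 to 14.21, and nearly all of it came from a single library. Such members show the size of the gaps that a single library can make.

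The controls of the experiments can be compared with each other, which gives the size of differences between samples labelled as control. Whether either control was itself injected is not given. This comparison shares the MO control sample with the MO comparison and the S31A control sample with the S31A comparison, and its values are therefore given beside theirs. Of 40 members measured, 13 were at least 2-fold lower in S31A control than in MO control (32.5%, where 16.2% of 8266 genes were) and 10 at least 2-fold higher (25.0%, where 13.6% of genes were). The control samples thus differed by 2-fold in 23 members, where the MO comparison had 18 and the S31A comparison 19. Of the 40 measured, 12 were lower and 6 higher at this size with libraries that did not overlap, where 14.5% and 9.67% of all genes were. The median log2 ratio was -0.17, and 0.05 for all genes. What differed between the experiments besides the label, such as the day, the mice or the injected material, cannot be told apart from the group.

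Some members were present in 1 control and at 0 in the other. Zfp27 was at 12.1 and 24.8 CPM in MO control and at 0 in all 4 S31A libraries, at least 121-fold lower in S31A control. Zfp790 was at 12.7 and 18.4 CPM in MO control and 0 and 0 CPM in S31A control, at least 106-fold lower, and Zfp94 was at least 101-fold lower. The same members were not at 0 throughout MO injected: Zfp27 stood there at 0 and 12.8 CPM and Zfp790 at 0 and 26.9 CPM. Going the other way, Zfp84, a KRAB gene, was at 16.6 and 32.4 CPM in MO control and 95.4 and 57.7 CPM in S31A control, a log2 ratio of 1.78. Several members lower in S31A injected stood higher in S31A control than in MO control, both times with the same S31A control libraries. Zfp110 stood at 28.4 and 25.6 CPM against 73.3 and 58.6 CPM, a log2 ratio of 1.32. Zfp28 stood at 2.17 and 1.15 CPM against 18.4 and 14.1 CPM, a log2 ratio of 3.18, and Zfp819 at 9.998 and 5.43 CPM against 15.9 and 25.8 CPM, a log2 ratio of 1.40. For these genes the S31A control was high against both its own injected sample and the MO control.

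Set side by side, several members lower in MO injected were also lower in S31A control, both times against the same MO control libraries. Zfp109 had log2 ratios of -1.64 and -1.64, with 22.1 and 22.7 CPM in S31A control and 23.9 and 46.9 CPM in S31A injected. Zfp260 had -1.58 and -5.81, Zfp715 -3.07 and -3.31, Zfp940 -2.0 and -3.25, and Zfp444 -1.16 and -2.75. For these genes MO control stood above the libraries of the MO injected and S31A control samples. Zfp74 differed from them: it was at 92.7 and 40.4 CPM in S31A control and 69.3 and 52.7 CPM in S31A injected, all above its MO injected libraries. Zfp553 was at 24.9 and 11.4 CPM in S31A control and 23.8 and 25.4 CPM in S31A injected, and its log2 ratio between the controls was -2.10.

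Both injection comparisons measured 36 members. Of these, 12 stayed within 2-fold in each, 1 was at least 2-fold lower in both, 1 was higher in both, and 3 were lower in MO and higher in S31A. Across these members the log2 ratios of the injection comparisons, which share no sample, had a Pearson correlation of 0.13, given as a description over genes of the same libraries. Through all 3 comparisons 10 members stayed within 2-fold. The same joint counts were not made over all genes, so nothing particular to the members can be read from them.

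**Figure D4:**
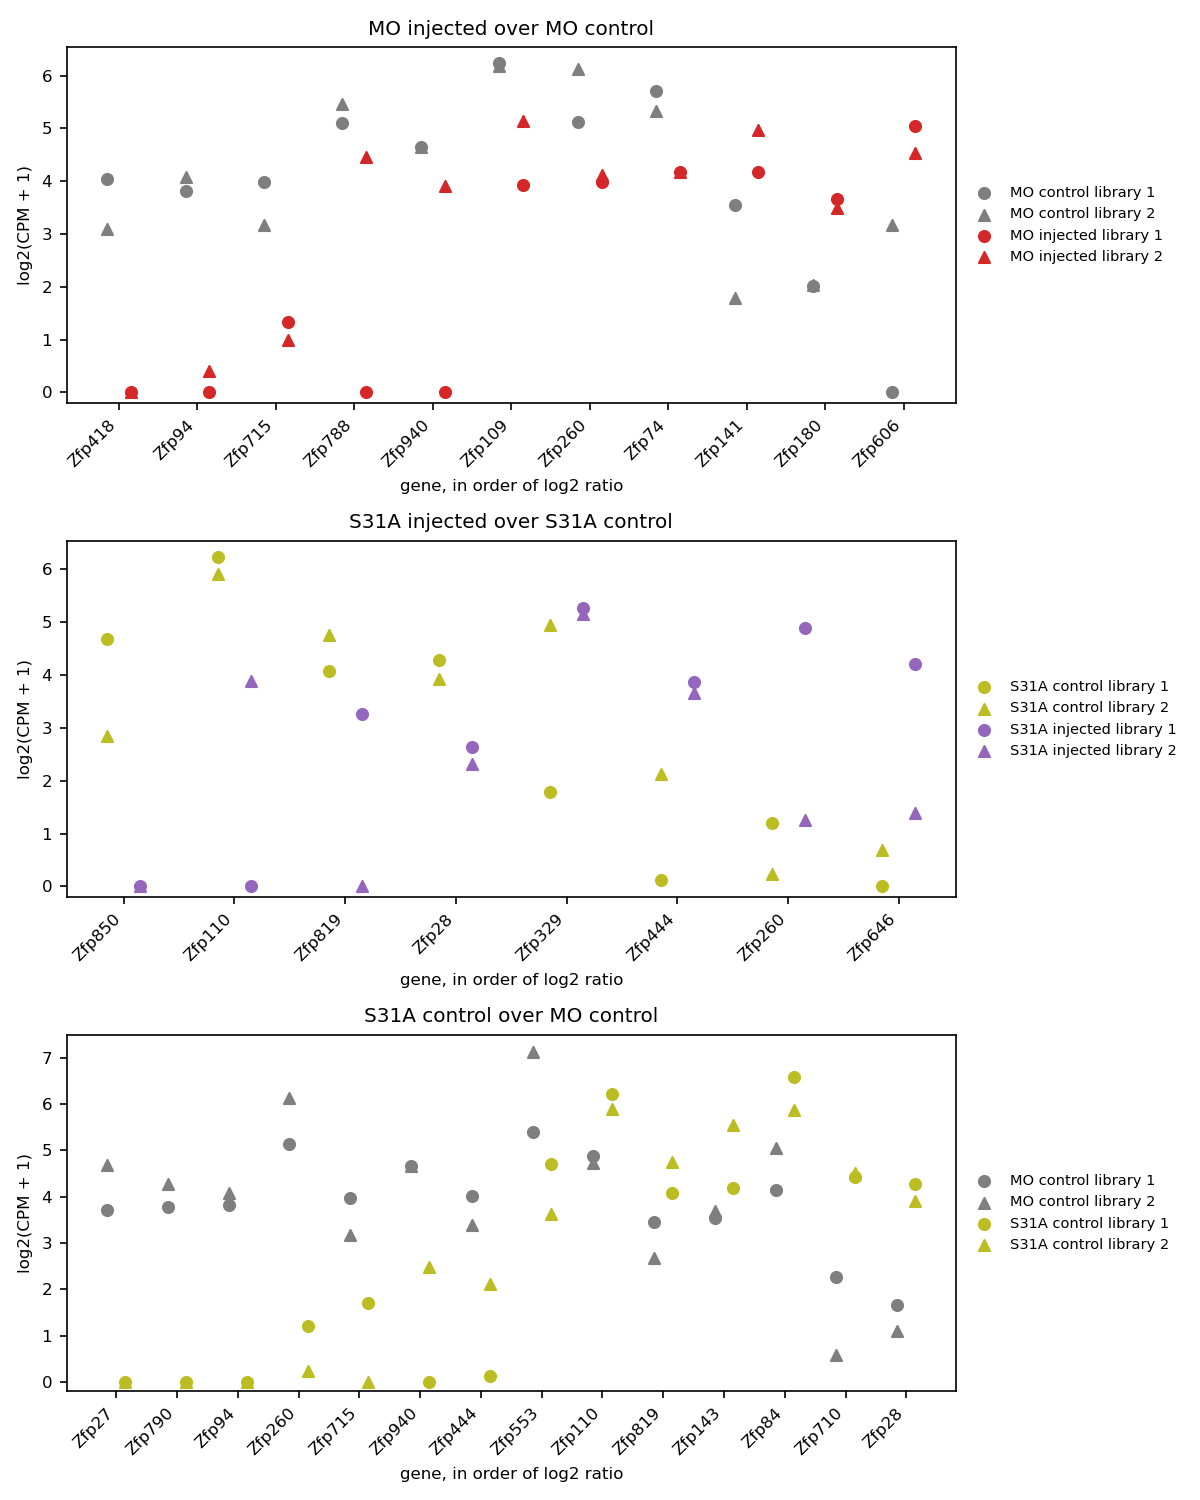
Each point is log2(CPM + 1) of a member in 1 library, for the members named in each comparison (1 panel each, in order of log2 ratio), with the colour giving the sample and the shape the library. Zfp109 and Zfp74 are lower in both MO injected libraries than in both MO control libraries, and Zfp260 is split between 28.6 and 1.39 CPM in S31A injected.

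Other members with a known role were low or varied between the libraries of a sample. Zfp541, needed for meiosis in the male germ line, was at 56.6 and 35.3 CPM in MO control, 50.3 and 14.0 in MO injected, 17.1 and 58.6 in S31A control, and 100.3 and 23.1 in S31A injected, with overlapping groups throughout. Zfp628, which acts in sperm development, reached at most 17.8 CPM, in 1 library of S31A injected. Zfp30 had a count in 1 library, MO control library 1, at 0.109 CPM. Zfp61 ran from 0 to 37.2 CPM with libraries of a sample far apart, and its S31A log2 ratio of -2.26 became 4.26 without control library 1.

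Partners and relatives of KRAB zinc finger proteins were read from a list of 27 genes, of which 26 were in the table. The relatives, Zfp57 and Zfp445, are zinc finger genes themselves. They enter the counts below and are also among the other Zfp genes. In the MO comparison 21 were measured, 0 were at least 2-fold higher and 1 was lower, Atf7ip2, where 11.3% and 12.5% of all genes were, with a median log2 ratio of -0.10. In the S31A comparison 20 were measured, 3 were higher (Smarcad1, Hdac2 and Zfp445) and 2 lower (Trim28 and Mphosph8), where 14.1% and 16.1% of all genes were, with a median of 0.25. Between the controls 0 were higher and 5 of 21 lower in S31A control, where 13.6% and 16.2% of all genes were. Atf7ip2 was among the lower with a log2 ratio of -1.57, as was Zfp57 with -1.72. Trim28 was at 35.0 and 12.8 CPM in MO control, 66.5 and 12.8 in MO injected, 32.2 and 59.96 in S31A control, and 26.5 and 10.9 in S31A injected, with a log2 ratio of -1.24 in the S31A comparison. Setdb1 was at 154 and 227 CPM in MO control, 104 and 162 in MO injected, 242 and 279 in S31A control, and 303 and 197 in S31A injected, and its libraries overlapped in both injection comparisons. Zfp57, which guards imprinted marks and lies on another chromosome, was at 503 and 498 CPM in MO control, 155 and 890 in MO injected, 143 and 150 in S31A control, and 109 and 92.9 in S31A injected. Its control samples thus lay further apart than the injected and control samples of either experiment.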

How the data were processed

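The authors deposited unnormalized whole-number counts for each gene and gene lengths in bases, per the file headers. The submitters' processing notes name Bowtie2, FastQC, featureCounts and DESeq2, on mm10. The sources used here give no version, annotation, strand setting or treatment of multiply matching reads. Reads that cross exon junctions may not align with Bowtie2, or may align to a processed pseudogene. Per the labels' protocols, cDNA was amplified by PCR, so reads are not independent molecules, and intervals and floors cover counting error only. Of the members, 18 have a copy of at least 90% identity over at least 300 bases (BLAST+ 2.17.0), 6 overlap an exon on the same strand and 20 one on the other strand.

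Counts were summed per sample, scaled with TMM (edgeR 4.0.16 in R 4.3.3) and compared as log2 ratios of CPM with a prior count of 2 (Python 3.11.15, pandas 2.3.3). A gene was measured at 10 CPM in at least 1 of the 2 samples. Intervals are exact Clopper-Pearson intervals at 95%. With 1 sample per group no test was run. The calculation was tested on simulated data. Alternatives were DESeq2 1.42.0 size factors, total counts, other filters and prior counts, and leaving out each library. No column was left out. Coordinates equal GENCODE M21 for 90 of 91 members.

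Named members are the 10 highest per kilobase, up to 8 per direction and comparison that were 2-fold apart with separate libraries and at least 50 counts, taken in order of the interval's inner bound, and 6 with known roles. Others named as examples, as copies or at a count's edge were chosen after their values were seen. Members and lists were chosen with earlier results of these data known. Of 3 blood markers, Hbb-bs was at 0, and their sum reached at most 0.856 CPM.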

Additional observations from a re-analysis of the deposited data

Results flagged for a closer look

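Zfp444 and Zfp260 stood lower in the MO comparison and higher in the S31A comparison in every library, a difference that was not tested. Zfp444 had a log2 ratio of -1.16 in the MO comparison, with both injected libraries below both controls, and 2.79 in the S31A comparison, with both above. Zfp260 had a log2 ratio of -1.58 in the MO comparison and 4.34 in the S31A comparison. In each gene the S31A control libraries were the low ones, at 0.0934 and 3.34 CPM for Zfp444 and at 1.31 and 0.176 CPM for Zfp260, and the MO control libraries stood at 15.1 and 9.54 CPM and at 34.0 and 69.2 CPM. Zfp260 in S31A injected was at 28.6 CPM in library 1 and 1.39 CPM in library 2, the latter about equal to its first control library, and the log2 ratio was 0.80 without injected library 1.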

How the results depend on the processing

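Low counts limit these results. Filters of 1 CPM, 50 CPM and none, in that order, were used in place of 10 CPM. The MO comparison then measured 63, 11 and 72 members. Of these 23, 3 and 27 were lower (36.5%, 27.3% and 37.5%), where 24.3%, 7.03% and 29.1% of all genes were. Higher were 10, 1 and 10 (15.9%, 9.09% and 13.9%), where 16.7%, 8.67% and 16.3% of all genes were. The S31A comparison measured 56, 13 and 59 members. Of these 17, 1 and 17 were higher (30.4%, 7.69% and 28.8%), where 22.3%, 8.02% and 23.1% of all genes were. S31A members lower numbered 1 at 50 CPM and 16 with no filter (7.69% and 27.1%), where 7.38% and 24.0% of all genes were. Between the controls 26, 4 and 32 members were lower, 2 were higher at 50 CPM and 16 with no filter, and the median log2 ratio was -0.63 at 1 CPM and -0.74 with no filter. Leaving out each library in turn gave 9 to 20 lower and 5 to 8 higher in the MO comparison (median -1.06 to -0.28), 8 to 15 lower and 9 to 12 higher in the S31A comparison (median -0.20 to 0.48), and 13 to 18 lower and 9 to 12 higher between the controls (median -0.48 to 0.13).

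Total-count scaling moved the median of all genes from 0.03 to -0.09 in the MO comparison and from 0.02 to -0.09 in the S31A comparison. It gave 18 of 41 members lower in the MO comparison (43.9%), where 15.4% of all genes were. For 49 ratios of at least 2-fold, each of a named member in a comparison, 497 alternative values were computed, of which 468 stayed at 2-fold in the same direction and 9 reversed, all on leaving out a library. A filter decides only which members are measured, so values at other filters equal the main value by construction. The 468 thus include values that could not change, and they do not measure how stable the ratios were. In the S31A comparison the log2 ratio ran, over the libraries left out, from -0.027 to 8.15 for Zfp141 (lowest without injected library 2), from -1.18 to 7.48 for Zfp715 and from -0.74 to 1.87 for Zfp939 (lowest without injected library 1), and from -6.87 to 2.49 for Zfp418 and from -4.53 to 4.26 for Zfp61 (highest without control library 1). In the MO comparison it ran from -0.65 to 2.72 for Zfp568 and from -0.60 to 4.96 for Zfp710 (lowest without injected library 1). Between the controls it ran from -1.62 to 0.23 for Zfp568 (highest without MO control library 1) and from -0.30 to 2.50 for Zfp850 (lowest without S31A control library 1). Ratios in which leaving out a library left a sample at 0 counts, among them the highest of Zfp141 and the lowest of Zfp418, depend on the prior count. The counts by cluster and by promoter element without a library were added after seeing the data. No paired analysis was possible because each group had 1 sample and no source says that the library numbers pair samples.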
